A study of Homo sapiens with 6 samples.

Results

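The genes described here are the YAP/TAZ coactivators, TEAD transcription factors and known target or partner genes of the Hippo pathway, profiled by RNA sequencing of MIA PaCa-2, an established line from a human pancreatic carcinoma. The set holds 10 genes chosen by name, with earlier results of these data known. They are YAP1, WWTR1, TEAD1, TEAD4, CCN1, CCN2, ANKRD1, AMOTL2, LATS2 and AJUBA. All 10 have a row among the 18268 rows of the deposited gene table. One group was MIA PaCa-2 cells labelled as overexpressing the long noncoding RNA LINC00901 (n = 3 libraries), and the other group was MIA PaCa-2 cells with the pCDH vector control (n = 3). Both groups grew in DMEM with 10% fetal bovine serum and 2.5% horse serum. The labels do not say whether the libraries of a group came from separate cultures, and the p-values below therefore reflect library-to-library spread that may be technical. They also do not say whether the cells were a pool or a clone. Of the table's rows, 0 name LINC00901, so the overexpression itself was not checked.

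The Hippo pathway is a kinase cascade in which the kinases STK3 and STK4, with the scaffold SAV1, activate the kinases LATS1 and LATS2. These phosphorylate the coactivators YAP, made by YAP1, and TAZ, made by WWTR1, which holds them in the cytoplasm or sends them to degradation. Unphosphorylated YAP and TAZ enter the nucleus and bind TEAD factors, which recognise the letters GGAATG in DNA and switch on genes such as CCN1, CCN2 and ANKRD1. Much of this control acts on the proteins, so an mRNA level is no measure of YAP or TAZ activity. In pancreatic cancer, YAP is known as a factor that can promote tumour growth.

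Values are FPKM, fragments scaled to gene length and library total, so levels of different genes can be set side by side, but the depth behind them is unknown. FPKM summed to between 127768 and 128538 in the LINC00901 libraries and between 87162 and 88738 in the vector libraries. Of the epithelial markers, KRT18 was at 62.48 to 86.92 FPKM in LINC00901 cells and 90.93 to 105.38 FPKM in vector cells, and KRT19 was at 22.89 to 25.02 FPKM in LINC00901 cells and 2.22 to 5.92 FPKM in vector cells. The row that joins KRT8 to KRT78 was at 14.82 to 16.56 FPKM in LINC00901 cells and 19.7 to 27.76 FPKM in vector cells. EPCAM and CDH1, which define most epithelia, did not exceed 0.14 FPKM in any library. COL3A1, a collagen gene usually linked to fibroblasts, was at 161.9 to 185.05 FPKM over all 6 libraries. The other fibroblast markers differed among themselves, with COL1A1 at 1.5 to 1.99 FPKM in LINC00901 cells and 0.36 to 0.92 FPKM in vector cells (limma adjusted p = 0.00913), COL1A2 at 10.39 to 15.77 FPKM in LINC00901 cells and 17.58 to 18.43 FPKM in vector cells (limma adjusted p = 0.0339), and DCN at no more than 0.01 FPKM. COL1A1 met the filter described below only through the LINC00901 libraries, since its mean was 0.583 FPKM in vector cells. The part of these markers in the results below was not tested. PTPRC, CD3E, PRSS1 and CPA1 were listed at 0 throughout. The leukocyte marker CD68 and the acinar marker CELA3A are in rows joined to other genes, so their own levels cannot be given. Those rows stood at 22.68 to 37.88 FPKM and 10.81 to 18.56 FPKM over all 6 libraries. Of the endothelial markers, PECAM1 and VWF did not exceed 0.05 FPKM. CDH5 was at 0.48 to 0.64 FPKM in LINC00901 cells and 0.14 to 0.27 FPKM in vector cells. Groups were compared with limma on log2(FPKM + 0.5) for the 9694 rows with a mean of at least 1 FPKM, and p-values were adjusted over all of them (Benjamini-Hochberg), with 0.05 as the threshold. The median row was higher in the LINC00901 libraries by 0.27 log2, so log2 differences below are relative to that median unless called unscaled, while adjusted p-values come from the unscaled fit.

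Among the 10 genes, CCN1 and CCN2 were higher in LINC00901 cells and AMOTL2 was lower, under every alternative that tested them. CCN2 met the filter only through its LINC00901 libraries. WWTR1 and the row that holds AJUBA also passed upward, and TEAD1 passed downward, but these calls depended on single libraries or on scaling. The TEAD4, LATS2 and YAP1 rows did not pass. ANKRD1 was listed at 0 in all 6 libraries and was not tested. In counts, 9 of the 10 genes were tested, 4 passed upward and 2 downward. Over all tested rows, 37.4% passed upward and 11.9% downward, so the shares among these genes lie near the background and say nothing particular about the set. The same 4 genes had all LINC00901 values above all vector values, as 44.9% of tested rows did, and the same 2 had all of them below, as 15.6% did. With each library centred on its median row, 2 members passed upward and 2 downward, against 24% and 19.2% of all rows. The median log2 difference of the 9 tested genes was 0.24 relative to the median of all rows, but -0.12 for the 7 of them that the length and GC correction covers, so its direction depends on the processing.

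**Figure D1:**
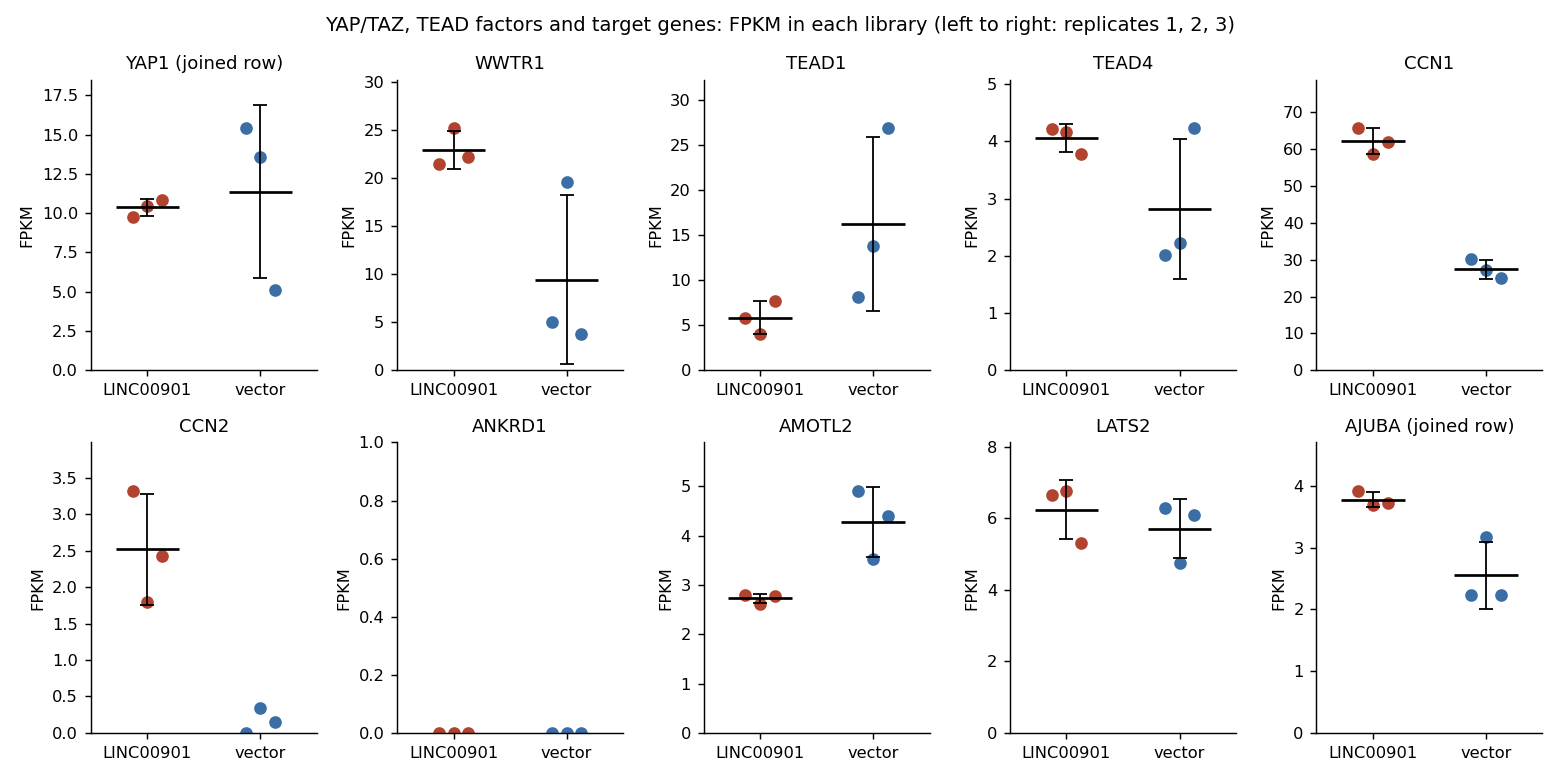
FPKM of the 10 genes in each library, with LINC00901 cells left (red) and vector cells right (blue), points in the order of replicates 1 to 3, black lines at the mean and bars of 1 SD (n = 3), both left out where a library is listed at 0; each panel has its own axis from 0. CCN1 stood at 58.79 to 65.74 FPKM in LINC00901 cells and 25.08 to 30.2 FPKM in vector cells, whereas WWTR1, TEAD1 and the YAP1 row were spread widely among the vector libraries.

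CCN1, a secreted matricellular protein gene that is both a YAP/TAZ target and an immediate early gene, had the highest mean of the 10 in each group, although TEAD1 exceeded it in vector replicate 3. Its level was 65.74, 58.79 and 62.1 FPKM in LINC00901 replicates 1 to 3, against 30.2, 27.12 and 25.08 FPKM in vector replicates 1 to 3. All LINC00901 libraries were above all vector libraries. CCN1 averaged 62.2 ± 3.48 FPKM in LINC00901 cells and 27.5 ± 2.58 FPKM in vector cells (SD, n = 3 each), a ratio of 2.26. The relative log2 difference was 0.90 ± 0.091 (SE), with a limma adjusted p of 0.000195. After quantile normalization the log2 difference was 0.57 (adjusted p = 0.00479).

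CCN2, the related connective tissue growth factor gene and the most used readout of YAP and TAZ, was low in both groups. It stood at 3.32, 1.8 and 2.43 FPKM in LINC00901 cells, against 0, 0.34 and 0.15 FPKM in vector cells. Every LINC00901 library lay above every vector library, and the vector libraries were at or near the bottom of the table's range. The relative log2 difference was 1.92 ± 0.26 (SE; 95% interval 1.29 to 2.55), with a limma adjusted p of 0.000886, and 99.5% of tested rows had a lower or equal signed difference. Because the added 0.5 FPKM exceeds each vector value, this scale understates the change. With 0.1 FPKM added the unscaled log2 difference was 3.52, with 1 FPKM it was 1.58, and both passed. CCN2 met the filter of a mean of at least 1 FPKM only through the LINC00901 libraries. Its mean was 2.52 FPKM there and 0.163 FPKM in vector cells. With no filter its limma adjusted p was 0.00157.

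ANKRD1, which encodes a muscle ankyrin repeat protein and is another standard YAP/TAZ target, was listed at 0 in all 6 libraries. Since all 13 rows of mitochondrially encoded genes are at 0 as well, such a 0 need not mean that the gene was silent. CCN2 and ANKRD1 share the GGAATG letters just before their starts, although their listed values differ, and so both stretches are shown. They are the 250 bases before the RefSeq gene start in GRCh38.p14, read on the gene's own (minus) strand, with GGAATG in capitals. That build is not the hg19 of the authors' alignment. CCN2 lies at chr6:131951373-131951622 and ANKRD1 at chr10:90921088-90921337.
CCN2: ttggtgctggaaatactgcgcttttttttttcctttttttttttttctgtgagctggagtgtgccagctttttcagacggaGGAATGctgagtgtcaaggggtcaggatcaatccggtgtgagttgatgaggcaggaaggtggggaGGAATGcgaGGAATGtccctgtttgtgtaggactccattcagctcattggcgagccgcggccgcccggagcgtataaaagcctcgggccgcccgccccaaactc
ANKRD1: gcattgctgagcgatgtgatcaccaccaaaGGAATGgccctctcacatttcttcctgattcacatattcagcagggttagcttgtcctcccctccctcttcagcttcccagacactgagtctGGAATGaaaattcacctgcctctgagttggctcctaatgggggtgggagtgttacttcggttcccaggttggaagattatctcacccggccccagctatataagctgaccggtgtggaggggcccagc
GGAATG or its reverse complement CATTCC was searched on both strands. In CCN2 the first bases of the 3 matches lie 169, 104 and 95 bases before the start. In ANKRD1 those of the 2 matches lie 220 and 128 bases before it. No matches overlapped. Of 35116 RefSeq promoters with a window of the same length, 11.9% held at least 1 match, 0.940% at least 2 and 0.0826% at least 3. RefSeq promoters were matched for 7 of the 10 genes, with 10 promoters in all, of which 5 held a match. Besides those of CCN2 and ANKRD1 they were promoters of YAP1, AMOTL2 and AJUBA, each with 1. CCN1, TEAD1 and TEAD4 had no entry. A match describes letters and shows no binding, and no match speaks only of this window.

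AMOTL2 encodes an angiomotin-like junction protein that binds YAP and restrains it, and the gene is itself a YAP/TAZ target. Its level was 2.79, 2.62 and 2.77 FPKM in LINC00901 cells, against 4.91, 3.52 and 4.4 FPKM in vector cells. All LINC00901 libraries were lower than all vector libraries. The means were 2.73 ± 0.0929 FPKM in LINC00901 cells and 4.28 ± 0.703 FPKM in vector cells (SD, n = 3 each). The relative log2 difference was -0.82 ± 0.14 (SE), with a limma adjusted p of 0.0147. AMOTL2 was lower in LINC00901 cells, where CCN1 and CCN2 were higher. All 3 are known YAP/TAZ targets, and the cause of this difference was not tested.

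LATS2, the Hippo kinase that YAP and TAZ induce in a feedback loop, stood at 6.66, 6.77 and 5.3 FPKM in LINC00901 cells and 6.28, 4.76 and 6.09 FPKM in vector cells. The groups overlapped, and LATS2 did not pass (limma adjusted p = 0.524). Its relative log2 difference was -0.14, with a 95% interval of -0.49 to 0.20, and the sign depended on scaling. AJUBA, a LIM domain protein gene whose product binds LATS kinases at junctions, is joined to HAUS4 and AL132780 in 1 row, so its own level cannot be given. That row stood at 3.92, 3.69 and 3.72 FPKM in LINC00901 cells and 2.24, 3.18 and 2.24 FPKM in vector cells, with groups that did not overlap. It passed in the unscaled fit (limma adjusted p = 0.0282), but not after median centring (adjusted p = 0.157) or quantile normalization (0.114). The AJUBA row also missed the threshold without any single one of LINC00901 replicates 1, 2 and 3 and vector replicates 1 and 3 (limma adjusted p 0.0661 to 0.0788).

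The coactivator genes YAP1 and WWTR1 were tight in LINC00901 cells and scattered in vector cells. WWTR1, which encodes TAZ, stood at 21.49, 25.18 and 22.14 FPKM in LINC00901 cells, against 4.98, 19.57 and 3.75 FPKM in vector cells. The groups did not overlap, but vector replicate 2 lay close to the LINC00901 libraries and far above the other vector libraries. The relative log2 difference was 1.33, with a 95% interval of 0.05 to 2.60 and a limma adjusted p of 0.0446. Without vector replicate 2 the unscaled log2 difference was 2.28 (limma adjusted p = 0.000742), against 1.59 with all libraries. Without any other single library, LINC00901 replicates 1, 2 and 3 and vector replicates 1 and 3, the limma adjusted p was 0.0925 to 0.124. It was 0.0786 after median centring, 0.139 after quantile normalization and 0.0592 after correcting for gene length and GC content.

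YAP1 is joined to CFAP300, a cilia gene, in 1 row, so its own level cannot be given. The row stood at 9.77, 10.49 and 10.84 FPKM in LINC00901 cells, between the values of 15.42, 13.61 and 5.09 FPKM in vector cells. It did not pass (limma adjusted p = 0.986), with a relative log2 difference of -0.26 and a 95% interval of -1.14 to 0.63. Vector replicate 3 was the low library. Without it the YAP1 row was lower in LINC00901 cells by an unscaled log2 difference of -0.47 (limma adjusted p = 0.0166).

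Within each library the WWTR1 level was 2.20, 2.40 and 2.04 times that of the YAP1 row in LINC00901 cells, against 0.323, 1.44 and 0.737 times in vector cells. All LINC00901 ratios were above all vector ratios, and this comparison does not depend on how libraries are scaled to each other. The mean log2 ratio of FPKM + 0.5 was 1.11 ± 0.114 in LINC00901 cells and -0.48 ± 1.03 in vector cells (SD, n = 3 each). The exact two-sided permutation p was 0.1, the smallest that 3 against 3 libraries can give, and it was 0.15 after adjustment over the 3 ratios computed. The difference of 1.58 became 1.05 without vector replicate 1. CCN1 exceeded CCN2 19.8-fold, 32.7-fold and 25.6-fold in LINC00901 cells, and 79.8-fold and 167-fold in vector replicates 2 and 3, while CCN2 was listed at 0 in vector replicate 1. The difference of that log2 ratio was -1.02 (exact permutation p = 0.1, adjusted 0.15), but -2.34 with 0.1 FPKM added and -0.43 with 1 FPKM added. LATS2 stood below LATS1 in each library, at 0.682, 0.801 and 0.542 times its level in LINC00901 cells and 0.583, 0.403 and 0.548 times in vector cells, with overlapping groups (exact permutation p = 0.3, adjusted 0.3).

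**Figure D2:**
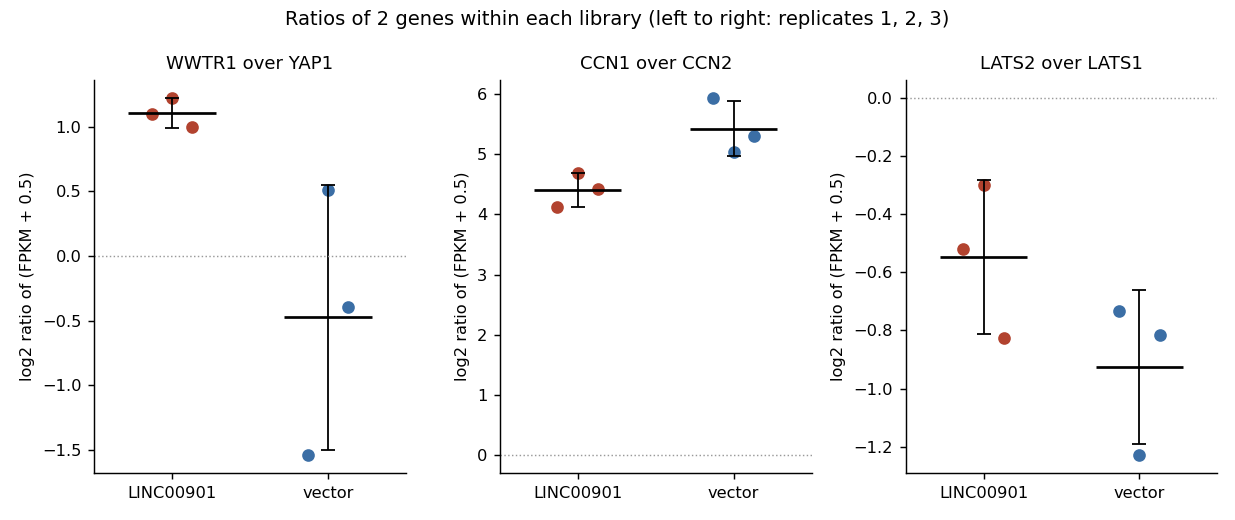
Log2 ratio of FPKM + 0.5 between 2 genes of the same library (y axis), with LINC00901 cells left (red) and vector cells right (blue), black lines at the mean and bars of 1 SD (n = 3); YAP1 is its joined row and the dotted line marks equal levels. WWTR1 exceeded the YAP1 row in all 3 LINC00901 libraries and in 1 vector library, and the LATS2 to LATS1 ratios of the groups overlapped.

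TEAD1 encodes a TEAD factor expressed in many tissues. It stood at 5.8, 4.05 and 7.66 FPKM in LINC00901 cells, against 8.09, 13.77 and 26.85 FPKM in vector cells. The groups did not overlap, although LINC00901 replicate 3 and vector replicate 1 were close and the vector libraries differed more than 3-fold among themselves. The relative log2 difference was -1.55, with a 95% interval of -2.54 to -0.55 and a limma adjusted p of 0.0409. Without vector replicate 1 the adjusted p was 0.0126. Leaving out LINC00901 replicate 1, 2 or 3 or vector replicate 2 or 3 gave 0.0909, 0.119, 0.0505, 0.0864 and 0.0739, and without vector replicate 3 the unscaled log2 difference was -0.85 in place of -1.28. Corrected for length and GC content, the TEAD1 adjusted p was 0.0556.

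TEAD4, a paralogue often raised in tumours, stood at 4.22, 4.17 and 3.77 FPKM in LINC00901 cells and 2.01, 2.22 and 4.23 FPKM in vector cells. Vector replicate 3 was as high as the LINC00901 libraries, and TEAD4 did not pass (limma adjusted p = 0.119, relative log2 difference 0.25, 95% interval -0.32 to 0.82). Without vector replicate 3 its limma adjusted p was 0.00461. Outside the set of 10, TEAD3 stood at 4.92, 3.89 and 4.43 FPKM in LINC00901 cells against 2.9, 1.69 and 1.98 FPKM in vector cells, a relative log2 difference of 0.62 (limma adjusted p = 0.00783, but 0.0893 with a correction for gene length and GC content). TEAD2 stood at 8.96, 9.55 and 8.98 FPKM in LINC00901 cells against 5.74, 5.58 and 7.28 FPKM in vector cells, a relative log2 difference of 0.27 (limma adjusted p = 0.0104). The TEAD2 call was lost after median centring (limma adjusted p = 0.0581), quantile normalization (0.124) and correcting for gene length and GC content (0.538). With that last correction, which also centres each library on its median row, the TEAD2 log2 difference was 0.088. Of the 4 TEAD genes, TEAD1 alone had a lower mean FPKM in LINC00901 cells, although TEAD4 also turned negative (-0.09 log2) with the length and GC correction.

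**Figure D3:**
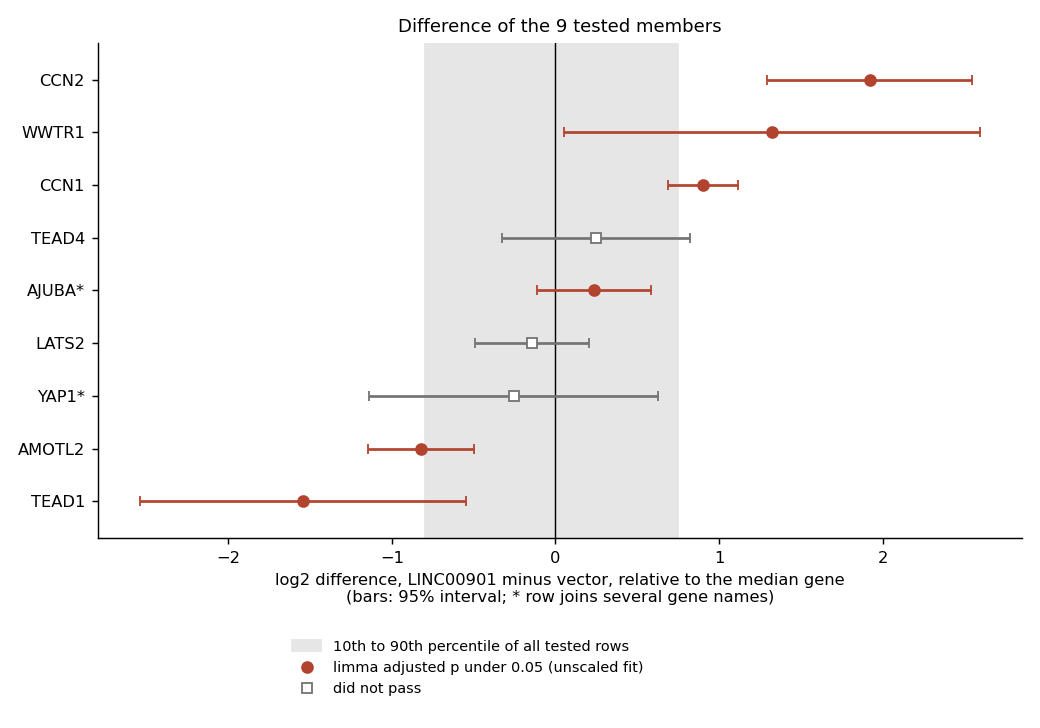
Log2 difference (LINC00901 minus vector, x axis) of the 9 tested genes relative to the median gene, with 95% intervals; filled red circles passed limma at an adjusted p of 0.05 in the unscaled fit, open squares did not, and the grey band spans the 10th to the 90th percentile of all 9694 rows. CCN2 at 1.92 and TEAD1 at -1.55 lie at the ends, and the intervals of WWTR1 and TEAD1 are wide.

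In vector cells the order of mean levels was CCN1, TEAD1, the YAP1 row, WWTR1, LATS2, AMOTL2, TEAD4, the AJUBA row, CCN2 and ANKRD1. Only the step between the AJUBA row and CCN2 separated neighbours whose values did not overlap. In LINC00901 cells the order was CCN1, WWTR1, the YAP1 row, LATS2, TEAD1, TEAD4, the AJUBA row, AMOTL2, CCN2 and ANKRD1. There the first 3 were separate from each other and from LATS2, as were the AJUBA row from AMOTL2 and CCN2 from ANKRD1, while LATS2 with TEAD1, TEAD1 with TEAD4, TEAD4 with the AJUBA row and AMOTL2 with CCN2 overlapped.

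The spread among the vector libraries differed between the genes. On the log2(FPKM + 0.5) scale the SD among vector libraries was 1.20 for WWTR1, 0.84 for TEAD1 and 0.83 for the YAP1 row, against a median of 0.17 over all tested rows. These lay at percentiles 99.2, 97.6 and 97.6 of all tested rows. The high or low library was not the same in the 3 rows. Vector replicate 2 was high for WWTR1, and vector replicate 3 was high for TEAD1 and low for the YAP1 row. The SD was 0.13 for CCN1, below that median. Pairs of vector libraries correlated at 0.940 over all tested rows, and pairs of LINC00901 libraries at 0.966 to 0.971. TEAD1 also varied among LINC00901 libraries, with an SD of 0.42 at percentile 93.1 of tested rows. GENCODE 29 places an antisense gene within 5 of the 10 genes, namely YAP1, WWTR1, TEAD1, CCN2 and LATS2. Whether counting used strand is not given in the sources used here, so reads of the partners cannot be told apart.

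**Figure D4:**
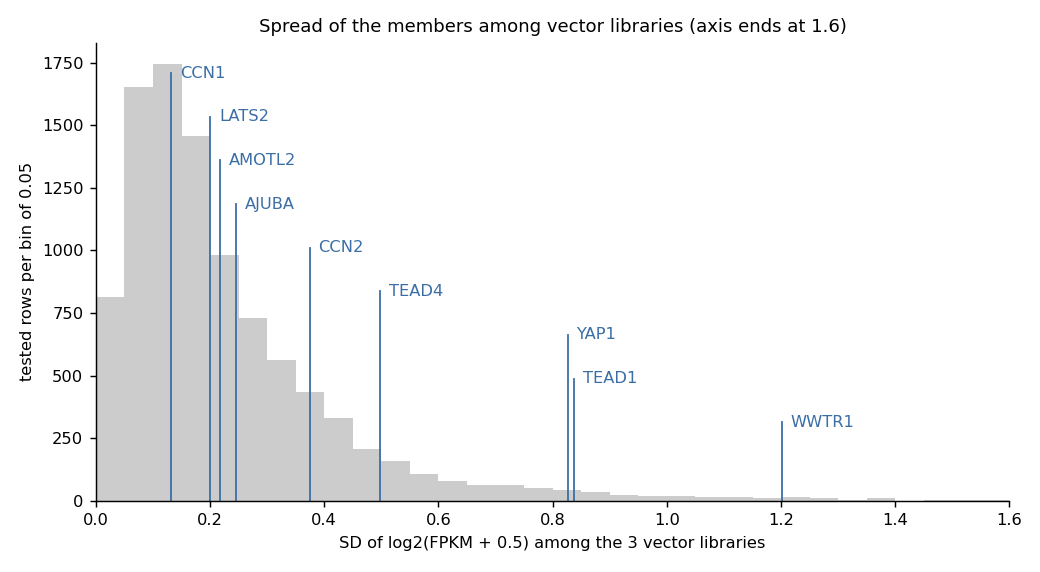
Number of tested rows (y axis) by the SD of log2(FPKM + 0.5) among the 3 vector libraries (x axis, bins of 0.05 log2), with blue lines at the 9 tested genes; line heights only separate the names. WWTR1, TEAD1 and YAP1 lie in the right tail at 1.20, 0.84 and 0.83, and CCN1 lies at 0.13.

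Other genes of the pathway were taken from 4 further lists. In the Hippo kinase core, 6 of 6 genes were tested, 2 passed upward and 0 downward in the unscaled fit, but 0 upward and 2 downward after median centring, so the direction of this list depends on scaling. All rows passed upward at 37.4% and downward at 11.9%, and at 24% and 19.2% after centring. SAV1, the scaffold of the cascade, averaged 5.70 ± 0.591 FPKM in LINC00901 cells and 3.88 ± 0.429 FPKM in vector cells (SD, n = 3 each; limma adjusted p = 0.0156, and 0.0996 after median centring). STK3 averaged 1.49 ± 0.0436 FPKM in LINC00901 cells and 1.03 ± 0.0611 FPKM in vector cells (limma adjusted p = 0.0401, and 0.287 after median centring). LATS1 stood at 9.76, 8.45 and 9.77 FPKM in LINC00901 cells and 10.77, 11.82 and 11.11 FPKM in vector cells, with groups that did not overlap. Its relative log2 difference was -0.52, with a limma adjusted p of 0.0638 unscaled and 0.00825 after median centring. LATS1 also passed after quantile normalization (0.00388), but not with the length and GC correction (0.111). STK4, the other kinase that passed downward after median centring (limma adjusted p = 0.0168, and 0.0638 unscaled), had a relative log2 difference of -0.67. Without a single library the calls of SAV1 (LINC00901 replicate 1 or 3, limma adjusted p 0.0504 and 0.0613) and STK3 (each of the 6 libraries, 0.0551 to 0.110) were lost.

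Of 18 upstream and junction regulators, 12 were tested, 0 passed upward and 3 downward, with the same counts after median centring. Over all rows 37.4% passed upward and 11.9% downward, and 24% and 19.2% after centring. FAT1, an atypical cadherin that feeds into Hippo signalling, averaged 16.5 ± 1.40 FPKM in LINC00901 cells and 22.5 ± 0.298 FPKM in vector cells (SD, n = 3 each; relative log2 difference -0.70, limma adjusted p = 0.00622). LIMD1, a LIM protein related to AJUBA, averaged 4.41 ± 0.333 FPKM in LINC00901 cells and 5.88 ± 0.235 FPKM in vector cells (relative log2 difference -0.65, limma adjusted p = 0.0195). FAT4, the second atypical cadherin of this list that passed, averaged 1.45 ± 0.223 FPKM in LINC00901 cells and 2.36 ± 0.578 FPKM in vector cells (relative log2 difference -0.80, limma adjusted p = 0.0446). The LIMD1 call was lost without LINC00901 replicate 1 or 3 or vector replicate 1 (limma adjusted p 0.0582, 0.0690 and 0.0504), and the FAT4 call without any library but vector replicate 2 (0.0672 to 0.138) and after the length and GC correction (0.181).

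Of 17 other known YAP/TAZ targets, 14 were tested, 3 passed upward and 0 downward, and after median centring 3 upward and 4 downward. The shares of all rows were 37.4% and 11.9%, and after centring 24% and 19.2%. The 4 downward after centring were CRIM1, ARHGEF17, TGFB2 and ASAP1 (limma adjusted p 0.0164, 0.0150, 0.0290 and 0.0306). After quantile normalization 1 passed upward and 4 downward, against 1865 and 2024 of all 9694 rows. NUAK2, an AMPK-related kinase gene, stood at 3.53, 4.6 and 3.32 FPKM in LINC00901 cells and 0.76, 2.04 and 1.01 FPKM in vector cells (relative log2 difference 1.08, limma adjusted p = 0.00692). MYOF, a membrane repair protein gene, averaged 54.6 ± 4.93 FPKM in LINC00901 cells and 32.3 ± 1.36 FPKM in vector cells (relative log2 difference 0.48, limma adjusted p = 0.000812). NT5E, the CD73 ectonucleotidase gene, averaged 27.4 ± 0.632 FPKM in LINC00901 cells and 19.0 ± 0.555 FPKM in vector cells (SD, n = 3 each; relative log2 difference 0.25, limma adjusted p = 0.00142). After quantile normalization MYOF (adjusted p = 0.351) and NT5E (0.752) no longer passed. The median log2 difference of this list was -0.36 relative to that of all rows, so most of its tested members lay below the median gene. NUAK2, MYOF, NT5E and GADD45A lay above it, GADD45A at 0.59 without passing (limma adjusted p = 0.136). Among 6 TEAD paralogues and VGLL cofactors, 3 were tested, 2 passed upward and 0 downward (37.4% and 11.9% of all rows). Upward counts in this list were 1 after median centring, 1 after quantile normalization and 0 after correcting for gene length and GC content. Over all rows these settings gave 2331 and 1865 of 9694 and 2083 of 8847 upward. With 3 tested genes, such counts say nothing particular about the list. VGLL4, a cofactor that competes with YAP for TEAD, did not pass (limma adjusted p = 0.454).

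**Figure D5:**
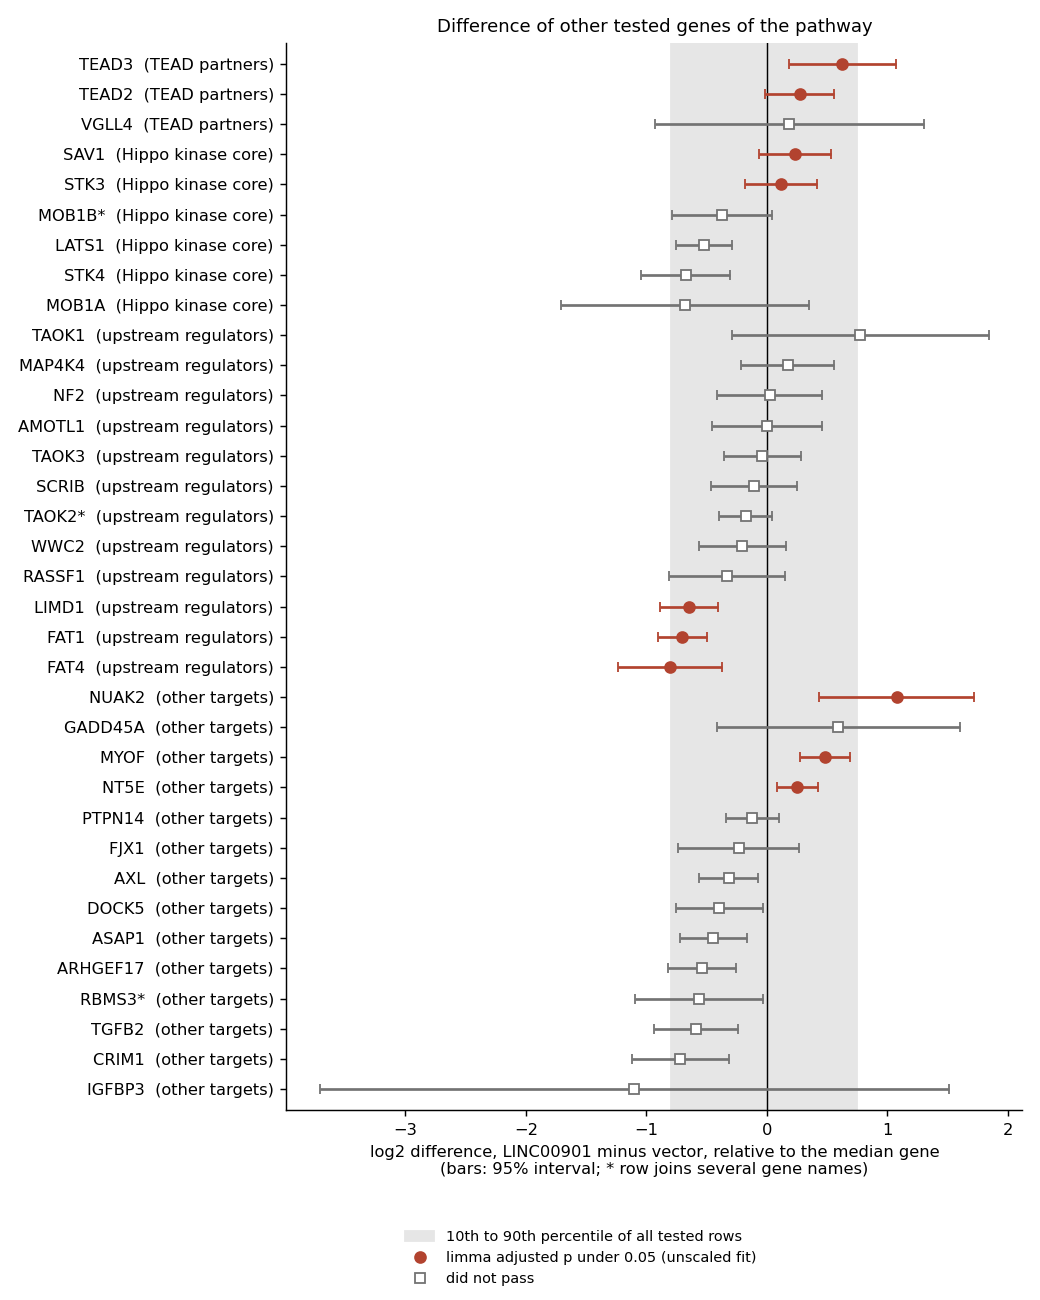
Log2 difference (LINC00901 minus vector, x axis) relative to the median gene for the other tested pathway genes, grouped by list, with 95% intervals; filled red circles passed limma at an adjusted p of 0.05 in the unscaled fit, open squares did not, and the grey band spans the 10th to the 90th percentile of all 9694 rows. NUAK2 at 1.08 is the highest and IGFBP3, with the widest interval, the lowest.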

How the data were processed

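RNA sequencing libraries were assigned to LINC00901 overexpression (n = 3) or vector control (n = 3) from their titles. The deposited values are FPKM per gene and library with 2 decimals, per the file headers. The submitters' processing notes name HISAT2, cutadapt, FastQC and the build hg19. For versions, depth and the program behind the FPKM, the answer is not given in the sources used here. Within a group, ratios of the lowest nonzero values of low rows were checked for lying within 0.1 log2 of a whole step. Of 1035 rows in LINC00901 cells 21.7% did, and of 777 in vector cells 20.2%, where chance gives 20%. The check sees only equal values and doublings and takes no account of depth or rounding, so it cannot tell whether whole-read steps are present. No count model was used, since the values are FPKM.

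Rows were matched by name, including the 990 rows that join several names. Of all rows, 9694 had a mean of at least 1 FPKM and were tested on log2(FPKM + 0.5) using limma 3.58.1 (R 4.3.3), an intensity trend and a design without the replicate number. The fit was tested on simulated data in which 200 rows were changed. Those data had equal spread in both groups and no shift of the median row. The deposited values differ in both respects, so the simulation does not show how the fit behaves on them. Ratios were tested by exact permutation in Python 3.11.15. Promoters came from RefSeq (GRCh38.p14). Length and GC content came from GENCODE 29 by symbol and were known for 91.3% of tested rows. The members and lists were chosen with earlier results of these data known. Named are all 10 members, TEAD2, TEAD3, LATS1 and up to 4 genes per further list that passed with groups that do not overlap. Any other gene was named after its values were seen. Alternatives were pseudocounts of 1 and 0.1, a minimum mean of 5 FPKM or no filter, median centring, quantile normalization, a length and GC correction, a replicate block, other variance settings and leaving out each library.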

Additional observations from a re-analysis of the deposited data

How the results depend on the processing

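CCN1 and CCN2 stayed higher and AMOTL2 lower, past the threshold, in each of the 16, 15 and 15 alternatives that tested them (limma adjusted p up to 0.00479, 0.00676 and 0.0468). In all of these but the fit with no filter, CCN2 was tested only through its LINC00901 libraries. Their accord on CCN2 is therefore not free of that filter. With no filter the CCN2 limma adjusted p was 0.00157. The count of members passing upward, 4, was 2 with a mean of at least 5 FPKM, median centring, quantile normalization or the length and GC correction. The count of members passing downward, 2, was 1 with no filter, a mean of at least 5 FPKM or the length and GC correction. Over all rows, 1152 passed downward, against 1866 after median centring, 2024 after quantile normalization and 1457 with the length and GC correction. The stricter filter tests 5 members and the length and GC correction 7, since joined rows have no length. Leaving out a single library gave 2 to 4 upward and 1 to 2 downward. All rows called, 4773 of 9694, were 5131 of 14518 with no filter, 2818 of 4830 with a mean of at least 5 FPKM and 3580 to 4358 without a library. These last totals are not split by direction. The cause of the other moves was not tested.

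Log2 differences changed sign between settings for 3 members that had not passed. Values of the unscaled fit and of the fits without a library are unscaled here, while the other settings rescale the libraries. Relative to the median gene, the YAP1 row (-0.26) and LATS2 (-0.14) were already negative in the unscaled fit. The YAP1 row, at 0.01, was at -0.20 with median centring, -0.33 with quantile normalization and between -0.47 and 0.29 without a library. LATS2, at 0.12, was at -0.088 with median centring, -0.11 with quantile normalization and -0.053 with the length and GC correction. TEAD4, at 0.51, was at -0.090 with the length and GC correction. Without a library the log2 ratio differences were 1.05 to 2.07 for WWTR1 over YAP1, -1.21 to -0.76 for CCN1 over CCN2 and 0.23 to 0.52 for LATS2 over LATS1.

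Libraries with the same replicate number did not deviate together (correlations of -0.037, -0.0057 and -0.0050), so no pairing by number was seen. This cannot show that such libraries were handled apart. With the replicate block, 3 members passed upward, 2 downward and 4227 rows in all.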

Other observations

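Of the other pathway genes, 12 lay below the filter and were not tested. WTIP, a LIM protein related to AJUBA, was at 0.61, 0.61 and 0.6 FPKM in LINC00901 cells and 1.12, 1.24 and 1.26 FPKM in vector cells. DCHS1, a ligand of FAT4, was at 0.08, 0.16 and 0.1 FPKM in LINC00901 cells and 0.31, 0.22 and 0.42 FPKM in vector cells. F3, the tissue factor gene and a YAP/TAZ target, was at 0.77, 0.51 and 0.67 FPKM in LINC00901 cells and 0.49, 0 and 0.12 FPKM in vector cells. These 3 genes were picked after their values were seen. AMOT, the founding angiomotin and a relative of AMOTL2, did not exceed 0.08 FPKM in any library. VGLL1, VGLL2, CRB3 and FOXF2 were listed at 0 in all 6 libraries.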
